A study of Mus musculus with 12 samples.

Results

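The 10 immediate early genes Egr1, Egr2, Egr3, Fos, Fosb, Jun, Junb, Atf3, Ier2 and Dusp1 were followed in RNA-seq libraries of mouse hair follicle stem cells (HFSCs). They were chosen by name, as genes that are induced by signaling and are also raised when a tissue is dissociated. All 10 were matched by symbol among the 17885 genes of the Eed table and the 21915 genes of the hair cycle table, 21942 genes in all, and all 10 passed the filter on low values in both. Immediate early genes are transcribed within minutes of a stimulus from factors already present in the cell, mainly through MAP kinase signaling to serum response factor and CREB at their promoters, and their mRNAs decay quickly. Most of their products are transcription factors: the Egr proteins bind GC-rich sites through zinc fingers, and Fos and Jun proteins pair to form AP-1. In skin, AP-1 is known for its part in keratinocyte growth, differentiation and wound response.

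There were 12 libraries from C57BL/6J mice, 3 for each of 4 groups, described as biological replicates. The control group was labelled wildtype and taken at postnatal day (P) 70, and the Eed iKO group was labelled Eed -/- and taken at the same age. Eed iKO mice carried K15-CrePGR and 2 floxed Eed alleles, and the Cre, which acts in the hair follicle bulge, was induced with RU-486 in ethanol on shaved back skin during the second telogen. By the study's methods, control mice received the ethanol alone, so loss of Eed and exposure to RU-486 cannot be told apart in this comparison. Eed encodes a core subunit of Polycomb repressive complex 2, and this comparison asks what its loss changes in resting HFSCs. The hair cycle libraries came from wildtype mice, at P28 to P30 for anagen, the growth phase, and P50 to P52 for telogen, the resting phase. Hair cycle phase and age of the mice cannot be told apart in this comparison. All cells were released from back skin with warm trypsin and gated by flow cytometry on CD34+, α6-integrin high, Sca1- and EpCAM+ before RNA extraction and cDNA amplification. Every library therefore passed through a dissociation step that is itself known to raise these genes, and its part in their levels cannot be told apart from levels in intact skin.

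Values are normalized counts, which are read counts per gene divided by a size factor for each library. The P70 libraries held 33269583 to 57063586 reads assigned to genes, and for the hair cycle libraries the depth is unknown. These 2 sets of libraries were normalized separately, so no level is compared between them. All 12 bulge marker genes sought, Cd34, Krt15 and Lhx2 among them, were present in both tables. The targeted gene, Eed, had 933 to 1361 normalized counts in Eed iKO and 950.2 to 1249 in control, with a log2 fold change of -0.01 ± 0.22 (SE; limma adjusted p = 0.993), so its mRNA did not separate the groups. By RT-qPCR, the study reported less Eed mRNA in isolated Eed-null HFSCs than in control. By staining at P70, it reported loss of H3K27me3, the histone mark of Polycomb repressive complex 2. The counts here cover the whole gene and not the deleted part alone, and throughout, Eed iKO stands for the libraries labelled Eed KO. In such bulk samples, fewer cells of a type and less RNA per cell cannot be told apart.

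In GRCm38, Egr2 lies at chr10:67535475-67542188 and Egr3 at chr14:70077203-70082614. Fos, with 4 exons, spans chr12:85473890-85477273, and Fosb spans chr7:19302696-19310051. Jun, with 1 exon, spans chr4:95049034-95052222. Junb (chr8:84974484-84978718) and Ier2 (chr8:84661331-84662852) share a chromosome, Atf3 lies at chr1:191170296-191218039 and Dusp1 at chr17:26505590-26562128. Exons of Junb overlap those of Prdx2, and exons of Dusp1 overlap those of Ergic1, so reads of these pairs may have been divided between the genes.

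The stretches before the starts of Fos, Fosb, Jun and Egr2 are shown, as 250 upstream bases of the RefSeq start on GRCm38.p6, read 5′ to 3′ along the gene. The windows are chr12:85473640-85473889 (plus strand) for Fos, chr7:19310046-19310295 (minus) for Fosb, chr4:95052223-95052472 (minus) for Jun and chr10:67537619-67537868 (plus) for Egr2. Capitals mark matches to the cyclic AMP response element TGACGTCA or its 5-base part TGACG, to the AP-1 site TGACTCA, and to the CArG box of serum response factor, each on either strand.
Fos: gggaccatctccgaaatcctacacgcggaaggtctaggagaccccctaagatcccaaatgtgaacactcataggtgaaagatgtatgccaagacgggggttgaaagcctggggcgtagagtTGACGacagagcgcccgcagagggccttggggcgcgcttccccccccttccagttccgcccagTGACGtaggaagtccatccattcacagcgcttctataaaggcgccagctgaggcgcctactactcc
Fosb: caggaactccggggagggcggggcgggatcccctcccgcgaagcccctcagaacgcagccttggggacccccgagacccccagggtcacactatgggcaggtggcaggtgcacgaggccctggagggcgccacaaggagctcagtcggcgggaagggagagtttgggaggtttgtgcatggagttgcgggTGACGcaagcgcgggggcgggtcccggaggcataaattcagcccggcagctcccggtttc
Jun: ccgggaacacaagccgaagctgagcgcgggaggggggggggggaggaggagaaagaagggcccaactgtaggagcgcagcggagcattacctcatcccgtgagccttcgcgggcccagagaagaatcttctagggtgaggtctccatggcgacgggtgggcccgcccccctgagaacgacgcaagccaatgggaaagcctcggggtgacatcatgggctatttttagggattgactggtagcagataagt
Egr2: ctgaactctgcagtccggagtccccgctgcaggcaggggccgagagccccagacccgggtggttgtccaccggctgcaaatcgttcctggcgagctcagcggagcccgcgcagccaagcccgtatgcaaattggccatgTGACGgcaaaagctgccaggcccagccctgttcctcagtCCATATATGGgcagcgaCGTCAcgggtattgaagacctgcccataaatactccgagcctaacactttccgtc

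In the Fos window TGACG began 129 and 66 bases before the start, and in the Fosb window it began 60 bases before it. Of the 7 members with a window, Fos, Fosb, Junb, Atf3, Dusp1 and Egr2 held TGACG. Counted by window it was 8 of their 11 windows, against 17.8% of all 32851 promoter windows of this length. Among the 8 are 3 windows of Egr2 that overlap and hold the same 2 matches. The members' windows had a GC content of 54% to 71.2%, above the median of 52.4% over all windows, and TGACG holds a CG. The whole element TGACGTCA was found in the Dusp1 window, against 1.55% of all windows. The CArG box, found in 1.47% of all windows, was matched in 4 of the 5 alternative windows of Egr2, at 2 distinct places, since 3 of these windows overlap and hold the same match. The AP-1 site, found in 4.46% of all windows, was matched in none of the members' windows. The Egr site GCGGGGGCG, found in 2.57% of windows, was matched in the Fosb window, and its T form GCGTGGGCG (0.536%) in none. The TATA box TATAAA, in 12.4% of windows, was matched in the Fos window alone. The Jun window held no match to any of these. TGACG is part of TGACGTCA, so these matches overlap. These matches describe the letters of a short window and show neither a bound site nor a cause.

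In the P70 libraries several immediate early genes were among the most abundant mRNAs. Their summed normalized counts made up 1.48% to 3.47% of the total per library. Ranked among all genes by control mean per kilobase, Egr1 was 7, Fosb 13, Dusp1 15 and Fos 23, where Egr2 was 1116 and Egr3 1534. Per kilobase of the longest coding transcript, the control mean was highest for Egr1, at 78543 ± 34495 normalized counts (SD, n = 3). Fosb (62752), Dusp1 (58618), Fos (43912), Atf3 (26030.0), Jun (18938), Junb (6348), Ier2 (4544) and Egr2 (1846) followed in that order, and Egr3 was lowest at 1454 ± 633. Of the 9 neighbouring pairs in this order, only Jun and Junb were separated by more than their SDs, although 5 pairs kept their order in all 3 control libraries. By this measure Egr1 was the most abundant of the transcription factors, and the other Egr genes the least. In Eed iKO libraries the place of Fos in this order was 2 and that of Fosb 4, the reverse of their places in control.

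Of the 10 genes, none passed the test between Eed iKO and control. With limma across 15008 genes, 0 of 10 had an adjusted p under 0.05, and 0 had an unadjusted p under 0.05. The same adjusted threshold was passed by 0.0267% of all genes tested and the unadjusted threshold by 14.7%. On the recovered read counts, DESeq2 called 0 members after adjustment and 1 (Fos) before it, and the quasi-likelihood test of edgeR called 0 by either measure. With a replicate block, an alternative to the main fit, limma called 3 members (Fos, Fosb and Ier2) after adjustment, and 424 of the 15008 genes. The estimates were positive for 4 genes and negative for 6, with a median log2 fold change of -0.11 against -0.00 over all genes. Both groups overlapped for each of the 10 genes, and over all genes, 20.2% did not overlap. Without both libraries numbered 3, a choice made after the data were seen, 6 of 10 did not overlap, against 49.6% of all genes. Fos, Jun and Ier2 were then higher in Eed iKO, and Fosb, Egr3 and Atf3 lower. The fold and unadjusted p used in the study's methods were met by 0 of 10, against 1.75% of all genes.

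Among the Egr genes, Egr1 had 259639, 266169 and 530754 normalized counts in replicates 1, 2 and 3 of the control group, and 251849.7, 359257 and 494634 in those of the Eed iKO group. Both ranges were nearly the same, and the log2 fold change of Eed iKO over control was 0.10 ± 0.32 (SE; limma adjusted p = 0.921). Egr2, known for roles in nerve myelination and in immune cells, was at 3719, 3867 and 8839 in control and 3856, 3428 and 7515 in Eed iKO (log2 fold change -0.12 ± 0.35, limma adjusted p = 0.909). Egr3 was at 5083, 3622 and 8481 in control and 2457, 2972 and 6282 in Eed iKO. Its lower estimate in Eed iKO, -0.59 ± 0.36, did not pass (limma adjusted p = 0.470), and the highest Eed iKO library exceeded both lower controls.

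Among the AP-1 subunits, Fos had 75797, 74098 and 127802 normalized counts in control and 100816, 122763 and 187351 in Eed iKO. Each Eed iKO library was above control replicates 1 and 2, but control replicate 3 exceeded Eed iKO replicates 1 and 2, and the log2 fold change of 0.56 ± 0.27 did not pass (limma adjusted p = 0.361). Fosb, a close relative of Fos, was at 161845, 182554 and 367585 in control and 103398, 119749 and 260372 in Eed iKO. The estimate for Fosb was of nearly the same size as that for Fos but negative, -0.58 ± 0.38 (limma adjusted p = 0.496). Jun, which pairs with Fos proteins, was at 43571, 51394 and 86213 in control and 52126, 76582 and 113892 in Eed iKO, with an estimate of 0.41 ± 0.30 (limma adjusted p = 0.554). Junb, which often opposes Jun, was at 9068, 7566 and 17818 in control and 6650.4, 8406 and 16622 in Eed iKO. Its estimate was -0.13 ± 0.36 (limma adjusted p = 0.897).

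Of the remaining members, Atf3, a stress-induced factor of the ATF family, was at 42657, 31296 and 80977 in control and 26277, 29666 and 89543 in Eed iKO. Ier2, a short nuclear protein of the immediate early response, was at 4713, 4006 and 12028 in control and 5928, 7151 and 17237 in Eed iKO. Dusp1 encodes a phosphatase that switches MAP kinases off again after a stimulus. It was at 68268, 77716 and 203965 in control and 60096, 89396 and 164845 in Eed iKO. Log2 fold changes of -0.21 ± 0.44 for Atf3, 0.56 ± 0.44 for Ier2 and -0.10 ± 0.43 for Dusp1 did not pass (limma adjusted p from 0.587 to 0.940). The 95% intervals of the 10 estimates all held 0. The narrowest was that of Fos, from -0.03 to 1.16, and the widest that of Atf3, from -1.19 to 0.77.

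**Figure D1:**
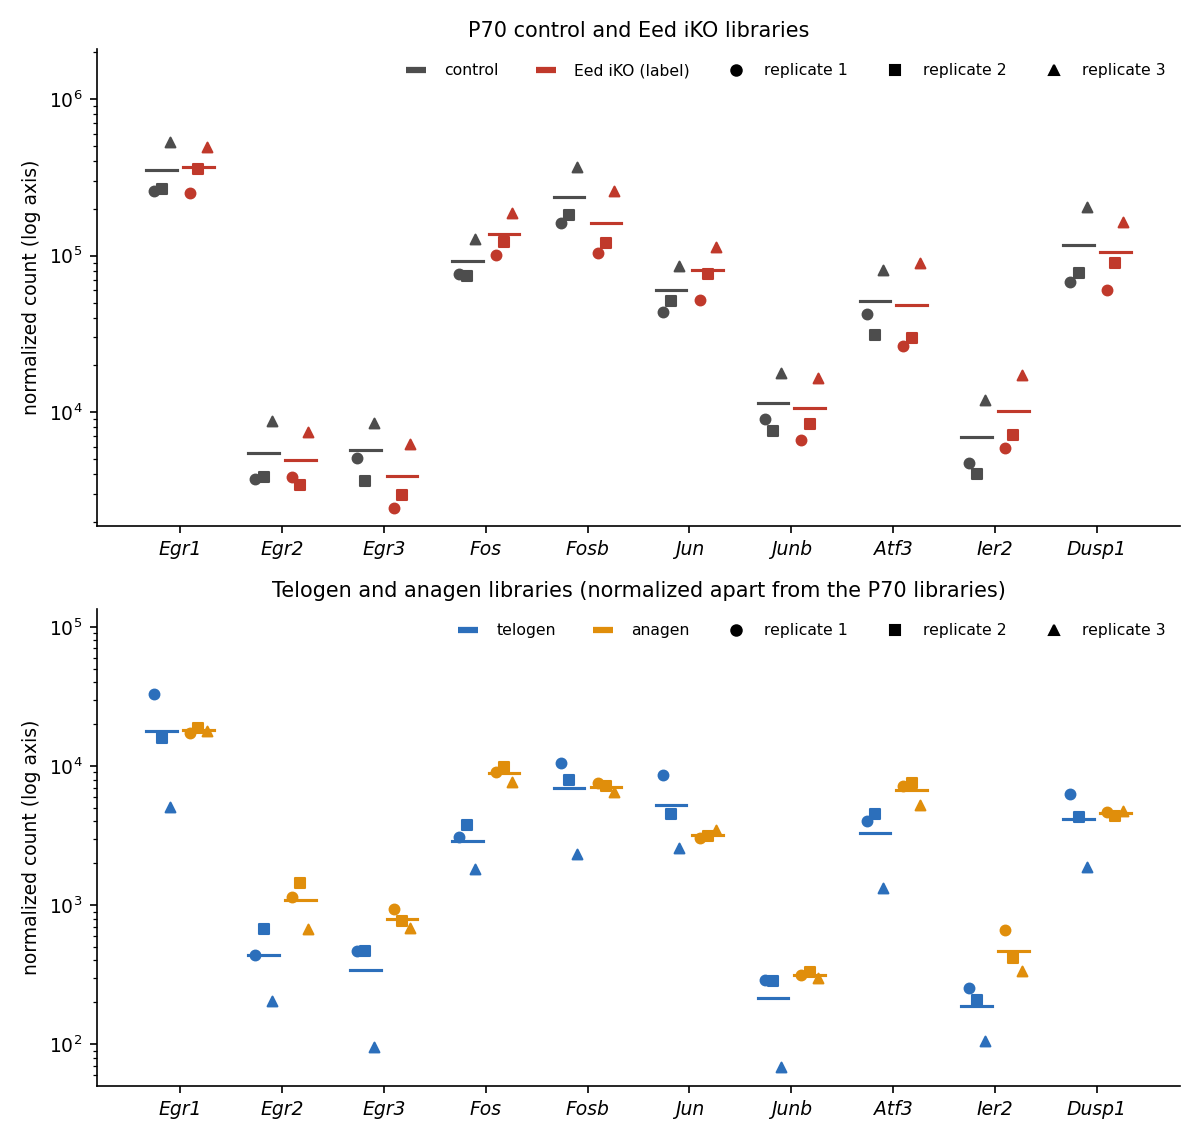
Normalized counts (log axis) of the 10 immediate early genes in each library, with P70 control and Eed iKO libraries above and telogen and anagen libraries below; symbols give the replicate number and bars the group means of 3 libraries. Replicate 3 is the highest of its group for each gene in control and in Eed iKO, and telogen replicate 3 is the lowest of the telogen libraries for each gene.

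The members shared a spread within the groups. Replicate 3 was highest of the 3 libraries for 10 of 10 genes in control and for 10 of 10 in Eed iKO. In order of replicate number, the genes' share of all normalized counts was 1.70%, 1.79% and 3.47% for control and 1.48%, 1.85% and 3.33% for Eed iKO. Atf3 spanned the widest range within a group, 3.41-fold between its lowest and highest Eed iKO library, and Fos the narrowest, 1.72-fold in control. The median within-group SD on the log2 scale was 0.67 for the 10 genes against 0.34 for all genes, and each of the 10 was above that median.

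The genes varied together across these libraries. Over the 45 pairs of genes, Pearson's r of the deviations from the group means over 6 libraries had a median of 0.963 and ran from 0.880 (Jun with Atf3) to 0.996 (Junb with Ier2). All pairs were read in the same 6 libraries, and replicate 3 of each group lay farthest from the group mean in the median of the members. The 5 other genes whose deviations were most like the mean of the members were Mark4 (r = 0.998), Ppp1r15a (0.997), Zmynd8 (0.997), Atf4 (0.996) and Midn (0.996). Ppp1r15a and Atf4 are known from the integrated stress response, and Midn from protein degradation. Mark4, the most alike, varied little in size, at 4294, 4305 and 4768 normalized counts in control. Of the 50 genes most like the members, 2 were in the fixed list of other primary response genes, which held 38 of the 15008 genes tested. Atf4, at 5787, 5746 and 11617 normalized counts in control and 6927, 7636 and 14973 in Eed iKO, was at its highest in replicate 3 of both groups.

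**Figure D2:**
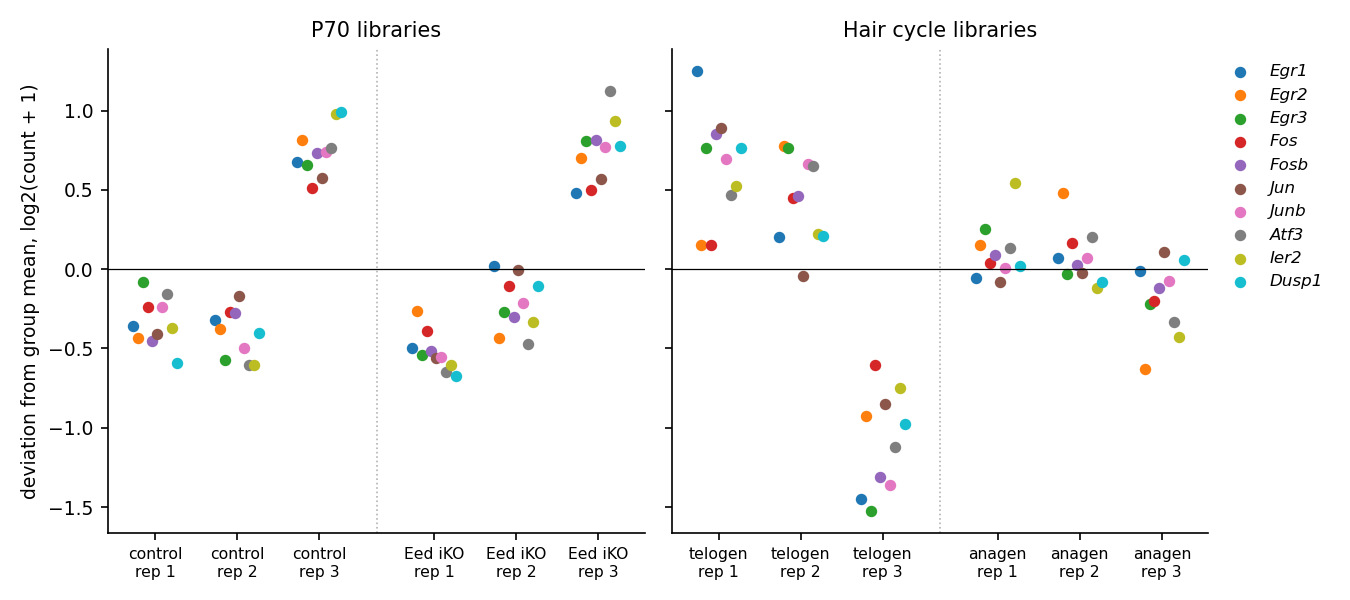
Deviation of each immediate early gene from its group mean in log2(normalized count + 1), by library, with 1 colour per gene. All 10 points lie above 0 in control replicate 3 and Eed iKO replicate 3, and all 10 lie below 0 in telogen replicate 3.

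Markers of other cells were followed beside this pattern. The summed normalized counts of the 5 suprabasal keratinocyte markers Krt1, Krt10, Lor, Ivl and Flg were 39970 in control replicate 3 and 57647 in Eed iKO replicate 3, against 4515 to 13446 in the other 4 P70 libraries. Krt10 made up most of this sum. Fibroblast markers summed to 1293 to 3279, endothelial and pericyte markers to 339 to 699 and immune markers to 148 to 560.2 in the P70 libraries, and melanocyte markers, nearly all of it Mitf, to 7809 to 9081, where Mlana, Lyz2, Tyrobp and Cd207 were at 0 in all control libraries. Cd207, a Langerhans cell marker, was at 18.3, 13.3 and 23.7 normalized counts in Eed iKO. Proliferation markers summed to 5919 to 7525 in control and to 14831, 15531 and 6700.0 in Eed iKO replicates 1, 2 and 3. One of them, the mitotic kinase gene Cdk1, was at 27.8, 41.2 and 49.0 in control and 276, 158 and 57.3 in Eed iKO. Cd207, Cdk1, the melanocyte gene Tyrp1 and Flg met the fold and unadjusted p of the study's methods, Flg lower in Eed iKO and the others higher, but not limma's adjusted threshold (limma adjusted p from 0.130 to 0.247). The heat shock and metallothionein list, 15 genes also known to rise with dissociation, summed to 183577 to 257338 in control and 265566 to 322487 in Eed iKO, without overlap. None of its genes passed limma's adjusted threshold. At an unadjusted p under 0.05 were 9 of 15, against 14.7% of all genes. After adjustment DESeq2 called 5, against 673 of all 15008 genes, and edgeR called 0, against 5. The part of any of these markers in the levels of the immediate early genes was not tested.

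Taking ratios of the genes within each library divides out what they share to the same degree. These ratios were examined after the values had been seen, and an exact permutation test of 3 against 3 libraries cannot go below p = 0.1, so they are given as a description. The ratio of Fos to Fosb was 0.468, 0.406 and 0.348 in control and 0.975, 1.025 and 0.720 in Eed iKO, a 2.22-fold difference of the geometric means with no overlap. The lowest Eed iKO library thus stood above the highest control library. In both groups replicate 3 had the lowest of these ratios, so part of the spread stayed. The ratio of Fosb to Jun was 3.71, 3.55 and 4.26 in control and 1.98, 1.56 and 2.29 in Eed iKO, 1.99-fold lower. The ratio of Fos to Jun, by comparison, overlapped between the groups, at 1.74, 1.44 and 1.48 in control and 1.93, 1.60 and 1.64 in Eed iKO.

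Of the 45 ratios among the 10 genes, 27 did not overlap between Eed iKO and control, where the ratio of any 2 tested genes above 0 in every library did not overlap for 18.6%. The 45 ratios share their 10 genes. Members vary together, and a ratio of 2 members divides out part of that shared spread, which a ratio to another gene can keep. The shares over all genes are therefore not a like background, here and in the hair cycle. With Fosb in the ratio it was 7 of 9, where ratios of all other tested genes to Fosb did not overlap for 6.71%. With Fos it was 6 of 9 against 18.8% of all genes, and with Jun 6 of 9 against 8.18%. The shares over all genes were not counted for Egr3 and Ier2, so no count of their ratios is given. By the geometric means of the ratios, Fosb and Egr3 were lower in Eed iKO relative to each of the other members. Fos, Jun and Ier2 were higher relative to each of the remaining members. Some of these ratios overlapped between the groups. The ratio of Egr3 to Fos was 2.22-fold lower in Eed iKO, and that of Fosb to Ier2 was 2.21-fold lower. The ratio of Jun to Junb was 4.81, 6.79 and 4.84 in control and 7.84, 9.11 and 6.85 in Eed iKO. Its groups were close to touching, with control replicate 2 just under Eed iKO replicate 3. Ratios within a library do not depend on the size factors, and they do not say which member of a pair changed.

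Between telogen and anagen, 2 of the 10 genes passed the test, and both were higher in anagen. Fos was 3.19-fold higher and Ier2 2.55-fold higher. That is 20.0% of the members, against 11.6% of 13457 genes called in either direction and 7.22% called higher in anagen. An unadjusted p under 0.05 was reached by 5 of 10 members (Fos, Ier2, Egr2, Atf3 and Egr3), against 27.3% of all genes. The groups did not overlap for 5 of 10, all higher in anagen (Fos, Ier2, Atf3, Egr3 and Junb), against 33.3% of all genes in either direction and 18.1% with anagen higher. The median log2 fold change of anagen over telogen was 1.00, against 0.01 over all genes, with 9 positive estimates and Jun the negative one. No member reached the log2 fold change of 2 with an unadjusted p under 0.05 used in the study's methods, which 5.1% of all genes did.

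Fos had 3092, 3792 and 1826 normalized counts in telogen replicates 1, 2 and 3 and 9087, 9913 and 7691 in anagen. Its lowest anagen library was above its highest telogen library by a wide margin, and the log2 fold change was 1.67 ± 0.26 (SE; limma adjusted p = 0.00233). It stayed between 1.37 and 1.90 when any 1 of the 6 libraries was left out, and passed each time. Ier2 was at 254, 207 and 105 in telogen and 659, 417 and 336 in anagen, without overlap, with a log2 fold change of 1.35 ± 0.39 (limma adjusted p = 0.0451). The call for Ier2 was lost when telogen replicate 2 or 3 or any anagen replicate was left out, with limma adjusted p from 0.0600 to 0.206 and estimates from 0.98 to 1.56.

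Egr2 was at 436, 672 and 206 in telogen and 1153, 1448 and 671 in anagen. The highest telogen and the lowest anagen library were almost equal, and the log2 fold change of 1.40 ± 0.41 fell just short of the threshold (limma adjusted p = 0.0508). Egr3 was at 468, 468 and 95.1 in telogen and 945, 775 and 679 in anagen, a log2 fold change of 1.52 ± 0.52 (limma adjusted p = 0.0823). Atf3 was at 4011, 4536 and 1331 in telogen and 7229.9, 7578 and 5219 in anagen, a log2 fold change of 1.19 ± 0.39 (limma adjusted p = 0.0730). For Egr3 and Atf3 no libraries overlapped, but telogen replicate 3 lay far under the other telogen libraries. Without it, the estimates were 0.76 for Egr3 and 0.63 for Atf3 and still did not pass; without telogen replicate 1 both passed, with limma adjusted p of 0.0412 and 0.0466. Without telogen replicate 2, Egr2 and Atf3 passed, with limma adjusted p of 0.0233 and 0.0411.

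Junb was at 289, 283 and 68.6 in telogen and 316, 330.1 and 298 in anagen. Its separation was thin apart from the low telogen replicate 3, and the log2 fold change of 0.82 ± 0.49 did not pass (limma adjusted p = 0.310). Egr1 was at 32866, 15909 and 5061 in telogen and 17284, 18878 and 17866 in anagen. Telogen replicate 1 thus held the highest and replicate 3 the lowest Egr1 level of the 6 libraries, a 6.49-fold span, where the anagen libraries spanned 1.09-fold. Fosb showed the same order, at 10480.2, 7984 and 2342 in telogen and 7572, 7227 and 6544 in anagen. Dusp1 did so too, at 6299, 4279 and 1879 in telogen and 4656, 4346 and 4789 in anagen. The log2 fold changes of 0.38 for Egr1, 0.29 for Fosb and 0.31 for Dusp1 did not pass (limma adjusted p from 0.603 to 0.705), and turned to -0.35, -0.37 and -0.18 without telogen replicate 3.

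Jun was the member with a negative estimate. It was at 8689, 4537 and 2596 in telogen and 3020.0, 3147 and 3444 in anagen, so that telogen replicates 1 and 2 lay above and replicate 3 below all anagen libraries, as for Fosb. Its log2 fold change of -0.55 ± 0.34 did not pass (limma adjusted p = 0.331). Without telogen replicate 3, Jun and Fosb were lower in anagen without overlap, the 5 genes named above were still higher without overlap, and over all genes 44.2% did not overlap. The median log2 fold change of the 10 genes was then 0.38.

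**Figure D3:**
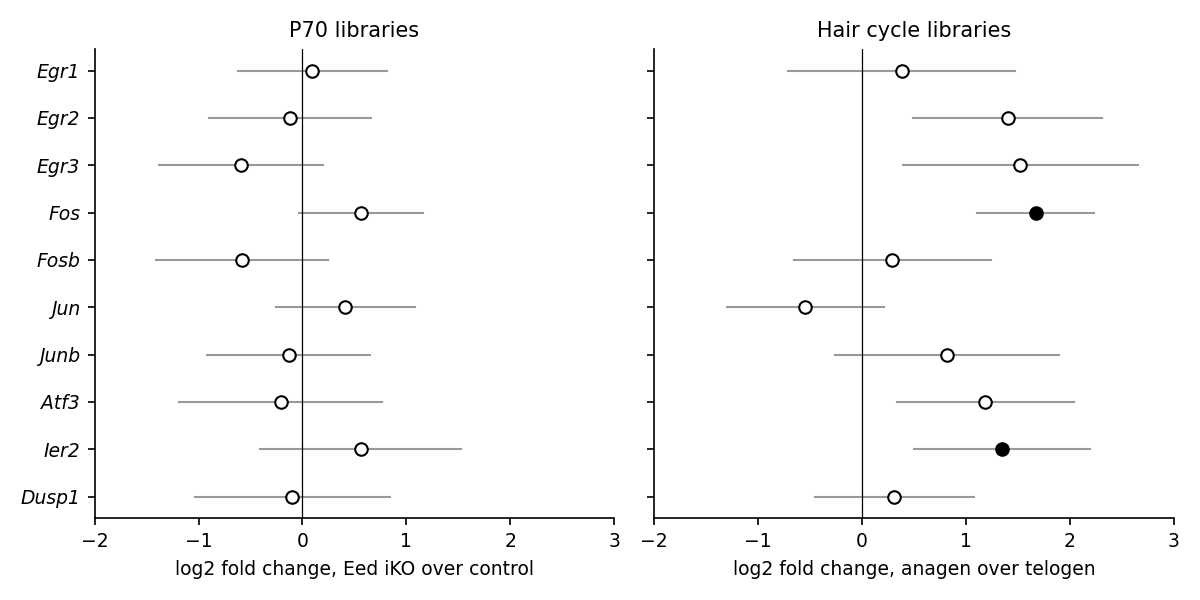
Log2 fold changes with 95% intervals (bars) from limma for the 10 immediate early genes, Eed iKO over control at left and anagen over telogen at right; filled points have an adjusted p under 0.05. At left all 10 intervals reach 0, and at right Fos and Ier2 are filled and Jun alone has a negative estimate.

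Per kilobase, Fos moved from 6 in the order of the members in telogen to 1 in anagen. Its telogen mean was 1377 ± 473 normalized counts per kilobase, and its anagen mean 4221 ± 533 (SD, n = 3). In telogen the order was Egr1, Dusp1, Fosb, Atf3, Jun, Fos, Egr2, Ier2, Junb and Egr3, and of the 9 neighbouring pairs only Fos and Egr2 were separated by more than their SDs. In anagen it was Fos, Egr1, Atf3, Dusp1, Fosb, Jun, Egr2, Ier2, Egr3 and Junb, with 4 of 9 neighbouring pairs separated, from Atf3 down to Egr2. The 10 genes together made up 0.581%, 0.326% and 0.136% of all normalized counts in telogen replicates 1, 2 and 3 and 0.399%, 0.431% and 0.360% in anagen. The telogen libraries thus lay on both sides of the anagen libraries in their total of immediate early mRNA.

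Telogen replicate 3 was lowest of its group for 10 of 10 genes, and replicate 1 highest for 7. The median within-group SD on the log2 scale was 0.72 for the members against 0.43 for all genes, with 9 of 10 above that median. Deviations of the 45 pairs of genes correlated with a median r of 0.874 over the 6 libraries, from 0.440 (Egr2 with Jun) to 0.990 (Egr1 with Dusp1). The other genes most like the members' mean were Ifit1, Psmb9, Ddx21, Slc52a3 and Tnfrsf1b (r from 0.996 to 0.997). Ifit1 and Psmb9 are interferon-responsive genes, and of these 5 genes Ifit1, Slc52a3 and Tnfrsf1b were at low levels. Of the 50 genes most like the members, 4 were in the fixed list of other primary response genes, which held 37 of the 13457 genes tested. All were read in the same 6 libraries, where telogen replicate 3 lay farthest from its group mean in the median of the members.

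Marker lists were read in the same libraries. The bulge markers summed to 272129.8 normalized counts in telogen replicate 1 and to 563236 to 690204 in the other 5 libraries. Krt15 and Krt5 made up most of this sum, with telogen ranges of 142406 to 416765 and 50461 to 155865. The other bulge markers spanned a smaller fold range in telogen, from Epcam, at 791 to 1864, to Nfatc1, at 3162 to 3307. The heat shock and metallothionein list summed to 58378 in telogen replicate 3, 95139.6 and 95247 in the other telogen libraries and 120657 to 122781 in anagen, without overlap, and 3 of its 15 genes passed, all higher in anagen (Hspa5, Hspd1 and Dnaja1). Over all genes 11.6% passed, and 7.22% passed with anagen higher. Proliferation markers summed to 2042 to 3421 in telogen and 21239 to 33914 in anagen, and 6 of 6 passed. Among the sort markers Cd34 was lower (log2 fold change -1.21 ± 0.20, limma adjusted p = 0.00382) and Itga6 higher (0.97 ± 0.21, limma adjusted p = 0.0144) in anagen. Summed markers of other cells overlapped between telogen and anagen for suprabasal keratinocytes (7661 to 15272 and 4495 to 13226), fibroblasts (316 to 649 and 469 to 628), endothelial cells and pericytes (72.7 to 142 and 132 to 171) and immune cells (102 to 113 and 82.7 to 117). Melanocyte markers, mostly Mitf in telogen, summed to 2874 to 3276 in telogen and 1393 to 1455 in anagen, without overlap.

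Single genes of these lists passed the test in the hair cycle. The suprabasal gene Flg had telogen values of 84.2, 67.5 and 47.1 normalized counts and anagen values of 597, 464 and 357 (log2 fold change 2.82 ± 0.36, limma adjusted p = 0.000682). The fibroblast genes Col1a1 (2.06 ± 0.41, limma adjusted p = 0.00928) and Dcn (4.05 ± 0.83, limma adjusted p = 0.0106) were higher in anagen, Dcn with telogen values of 0 to 1.47 normalized counts and anagen values of 15.7 to 38.5. Col1a2, of the same list, went the other way, at 233 to 600 normalized counts in telogen and 154 to 229 in anagen. It was not called by limma after adjustment. The endothelial gene Tek (2.98 ± 0.62, limma adjusted p = 0.0120) and the melanocyte gene Dct (2.51 ± 0.37, limma adjusted p = 0.00187) were also higher, and Mitf was lower (-1.85 ± 0.20, limma adjusted p = 0.000254). The genes called thus separated the same libraries as Fos and Ier2 did. Other genes of the lists of Flg and Tek were not called. Krt1 (1322 to 3190 normalized counts in telogen, 676 to 2458 in anagen) and Krt10 (6254 to 11920, 3348 to 9995) ranged lower in anagen with overlap. Ivl overlapped, and Lor was higher (22.8 to 26.7, 33.9 to 84.5). Pecam1 overlapped (54.9 to 122, 56.7 to 102). Kdr, at low levels, ranged lower with overlap (2.65 to 12.4, 0 to 3.20). The endothelial marker Cdh5 was at 0 in all 6 libraries. The part of any of these markers in the immediate early levels was not tested.

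The ratios within a library set Jun apart in the hair cycle. The ratio of Fos to Jun was 0.356, 0.836 and 0.704 in telogen and 3.01, 3.15 and 2.23 in anagen, 4.66-fold higher by the geometric means. The exact permutation test cannot go below p = 0.1 here either. The ratio of Jun to Junb was 30.0, 16.0 and 37.8 in telogen and 9.56, 9.53 and 11.6 in anagen. Jun was lower in anagen relative to each of the other 9 genes without overlap, where ratios of all genes to Jun did not overlap for 22.2%. The smallest of these 9 differences was that with Fosb, 1.79-fold.

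The ratio of Fos to Fosb was 0.295, 0.475 and 0.780 in telogen and 1.20, 1.37 and 1.18 in anagen, 2.61-fold higher. Telogen replicate 3, lowest in the level of both genes, was the nearest to anagen in this ratio. Ratios with Fosb did not overlap for 7 of 9 members, against 13.0% of all genes, and those with Fos for 4 of 9, against 76.3% of all genes. The latter share was lower than that over all genes. Of all 45 ratios, 23 did not overlap, against 32.0% over all pairs of tested genes above 0 in every library. As in the P70 libraries, these shares are not a like background, because members share spread that their ratios divide out in part.

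**Figure D4:**
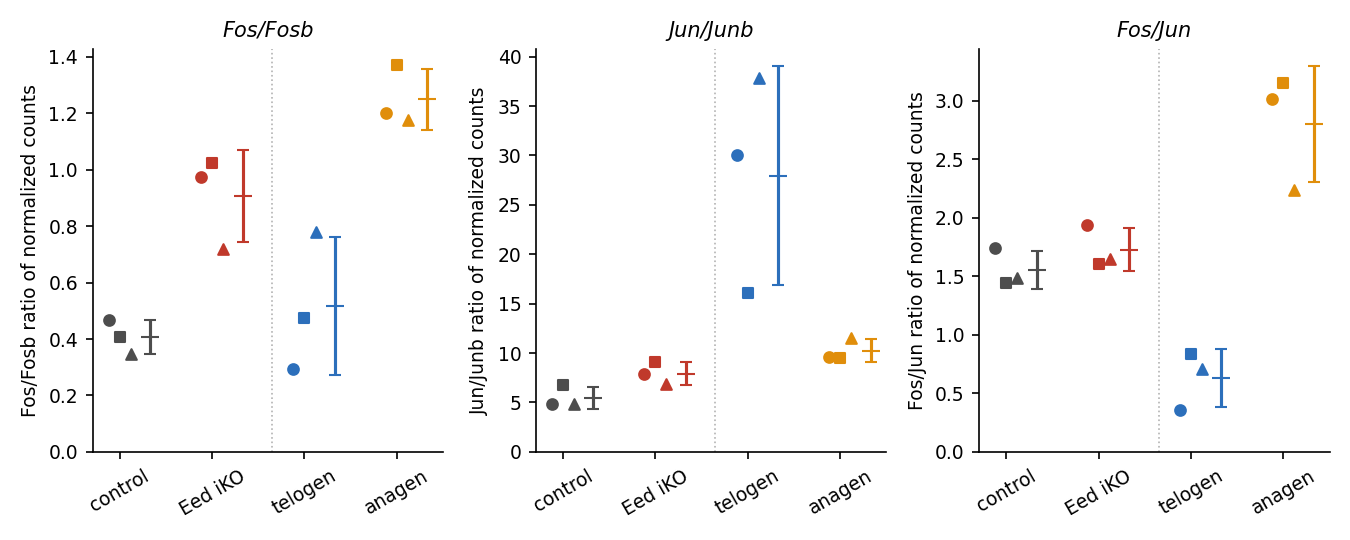
Ratios of the normalized counts of Fos to Fosb, Jun to Junb and Fos to Jun in each library, with circles, squares and triangles for replicates 1, 2 and 3 and the mean and SD of 3 libraries at the side of each group. The groups do not overlap in Fos to Fosb in either comparison, and Fos to Jun is above 2 in anagen and below 1 in telogen.

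Other genes of the same response were counted from fixed lists. Of 38 other primary response genes, 0 passed in Eed iKO by limma, with 7 at an unadjusted p under 0.05, which 14.7% of all genes reached. After adjustment DESeq2 called 3 of them, against 673 of all 15008 genes, and edgeR called 0. Between telogen and anagen, 10 of the 37 tested passed, 9 higher in anagen and 1 lower, a share of 27.0% against 11.6% of all genes, with a median log2 fold change of 0.54 against 0.01. The higher genes included Bhlhe40, a transcriptional repressor, at 2.06 ± 0.31 (limma adjusted p = 0.00202), Gadd45g at 1.67 ± 0.35 (limma adjusted p = 0.0120) and Irf1 at 1.70 ± 0.38 (limma adjusted p = 0.0161). Ier5, Nfkbiz, Btg2, an antiproliferative factor, and Rhob also passed, with log2 fold changes from 0.92 to 1.36.

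The gene that fell was Ccn2, a matrix-associated growth factor known as a target of YAP and TGF-β signaling. Telogen libraries had 8972, 5761 and 4995 normalized counts of Ccn2, anagen libraries 873, 985 and 1340.3, and the log2 fold change was -2.60 ± 0.25 (limma adjusted p = 0.000129). Telogen replicate 3, lowest for each immediate early gene, was close to replicate 2 in Ccn2. Of the other AP-1 and Egr family genes, 0 of 11 passed in Eed iKO and 0 of 9 in the hair cycle by limma (0 and 1 at an unadjusted p under 0.05; 0 of 11 by DESeq2 and by edgeR). Of 18 regulators and feedback genes, such as Srf and the kinases that reach it, 0 passed in Eed iKO by limma (1 at an unadjusted p under 0.05, 1 by DESeq2 and 0 by edgeR after adjustment). In the hair cycle 1 of 18 passed, Elk4, a partner of serum response factor, which was higher in anagen (0.99 ± 0.24, limma adjusted p = 0.0255).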

How the data were processed

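Per the labels and the study's methods, total RNA of sorted HFSCs was amplified (Ovation RNA-seq System V2), sequenced as paired-end reads and aligned by the authors to mouse GENCODE vM20 transcripts with kallisto 0.42.5, and protein-coding genes were compared with DESeq2. Each deposited value is a signal that the authors obtained by dividing a gene's count by the DESeq2 size factor of its library. Deposited columns of the authors' fold changes, standard errors and p-values were not used. As values are normalized, log2(value + 1) was fitted with limma 3.58.1 (R 4.3.3; lmFit, eBayes with trend, two-sided), each table alone, with filterByExpr at a minimum of 10 (15008 and 13457 genes tested) and Benjamini-Hochberg adjustment over all genes tested; calls had an adjusted p under 0.05. A fold change on this scale understates the change of low genes. For the P70 libraries, 100% of values were whole multiples of 1 constant per library (tolerance 0.01), so reads were recovered for edgeR 4.0.16 and DESeq2 1.42.0; for the hair cycle at most 31.1% were. Identifiers were matched to GENCODE vM21 (17879 and 21915 genes) for lengths and positions. Calls were tested on simulated data.

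The members and lists were chosen with earlier results of these data known. All 10 members are named. Genes of other lists are named only if called, or past the methods' fold and p, at most 8 per list and comparison; so are the 5 genes whose deviations most resemble the members' mean. Krt1, Krt10, Lor, Ivl, Mlana, Lyz2, Tyrobp, Cdh5, Pecam1, Kdr, Krt15, Krt5, Epcam, Nfatc1, Lhx2, Col1a2 and Srf fall outside this rule and were named with values seen. They say what a list holds, how its other markers range or which are at 0. Cell markers are given mainly as summed normalized counts. Ratios were chosen after values were seen. Alternatives were pseudocounts of 0.1 and 5, no filter, TMM scaling, no trend, a replicate block, leaving out each library, and count tests; leaving out both libraries numbered 3, and edgeR with the block, were added after seeing the data. Replicates are described as biological, from at least 2 litters, with no map of libraries to litters.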

Additional observations from a re-analysis of the deposited data

How the results depend on the processing

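Over 16 alternatives for Eed iKO and 13 for the hair cycle, 247 of 290 log2 fold changes of the members kept their direction and their side of the threshold; 20 reversed, 14 passed only under the alternative and 9 no longer passed. In Eed iKO, leaving out 1 library gave ranges of -0.14 to 0.43 for Egr1, -0.47 to 0.29 for Egr2, -0.52 to 0.24 for Junb, -0.77 to 0.17 for Atf3 and -0.49 to 0.40 for Dusp1, of 0.31 to 0.82 for Fos, 0.13 to 0.70 for Jun, 0.09 to 1.05 for Ier2, -0.99 to -0.22 for Fosb and -0.99 to -0.26 for Egr3, and of 1 to 188 genes called in place of 4 (188 without Eed iKO replicate 3). In the hair cycle it gave -0.35 to 1.00 for Egr1, -0.37 to 0.72 for Fosb and -0.18 to 0.70 for Dusp1, 0.14 to 1.17 for Junb and -0.97 to -0.10 for Jun, with 590 to 1534 genes called in place of 1556 and 1 to 4 members in place of 2. With both libraries numbered 3 left out, Dusp1 was 0.009 in Eed iKO, where 169 genes were called, and in the hair cycle Egr1 was -0.34, Fosb -0.31 and Dusp1 -0.21, with 603 genes and 1 member (Fos) called. Without the intensity trend 2 genes were called in Eed iKO and 842 in the hair cycle, with 1 member (Fos). A pseudocount of 0.1 or no filter also left 1 member, Fos. DESeq2 called 673 genes in Eed iKO and no member; the cause of these moves was not tested.

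The replicate numbers were not taken as pairs. Deviations of same-numbered libraries correlated with r of 0.039, 0.068 and 0.193 in the P70 libraries and -0.035, -0.071 and -0.029 in the hair cycle. Control replicate 1 correlated better with Eed iKO replicate 2 than with its own number. Across the groups, the P70 libraries numbered 3 correlated positively only with each other. With replicates 1 and 2 of the other group, r was -0.105 and -0.088 for Eed iKO replicate 3. It was -0.067 and -0.145 for control replicate 3. A part shared by the libraries numbered 3 was not modelled in the main fit. With the replicate block, 424 genes and 3 members were called in Eed iKO (Fos, limma adjusted p = 0.0325; Fosb, 0.0299; Ier2, 0.0436), and 5 members in the hair cycle (Egr2, Egr3, Fos, Atf3 and Ier2). With the block in edgeR, 359 genes and 2 members, Fos and Fosb, were called. The depth behind the hair cycle values is unknown.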
